A study of Mus musculus with 30 samples.

Results

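Hypothalami of mice that had fasted for 72 h and then been refed for 1 month were compared with hypothalami of fed controls. The comparison uses 8 of the 30 libraries of the series, 4 from refed mice and 4 from fed controls, which are all the libraries assigned to this time point and share 1 count table. Every mouse was wild type (labelled WT) and labelled B6, and the tissue of every library was labelled hypothalamus. The refed group had 1 treatment, the 72 h fast followed by 1 month of refeeding, and the control group was labelled Fed. The labels do not state age or sex, whether hypothalami were pooled, or whether the meninges were removed. The series as a whole follows the mouse hypothalamus through feeding, fasts of different length, a fast in the cold and refeeding. The table lists 22371 genes, and 14867 of them had enough counts to be tested. All changes below are 1 month refed minus fed control on a log2 scale, given as the change ± its standard error, and levels (CPM) are counts scaled to a common library total adjusted by TMM factors.

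The hypothalamus senses energy stores and sets hunger, energy use and hormone release. In its arcuate nucleus, Agrp and Npy neurons drive feeding and Pomc and Cartpt neurons restrain it, and a fast normally shifts the balance toward the first pair. The base of the hypothalamus lies against the meninges, the fibroblast-rich membranes around the brain, whose arachnoid barrier layer carries its own transporters and junctions and whose macrophages differ from the microglia of the brain tissue itself.

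Library totals ranged from 9347942 to 13813956 counts. Every pair of libraries within a group differed by more than counting noise, with a chi-square per degree of freedom of 3.19 to 14.1, so none was treated as a repeat of another. Nothing in the labels says that the libraries come from separate animals, so the p-values measure the spread between these libraries. The first principal component held 52.0% of the variance and separated the groups, with fed control 5 at -4.65, between the other fed controls (-34.1 to -23.5) and the refed libraries (18.6 to 32.6). The main counts are also given without it. Markers of the hypothalamus were present in both groups: Nkx2-1, a transcription factor of the ventral hypothalamus, averaged 29.9 ± 6.19 CPM (SD, n = 4) in the fed and 27.2 ± 2.14 CPM (SD, n = 4) in the refed libraries and the Nr5a1 gene of the ventromedial nucleus 15.4 ± 6.17 CPM (SD, n = 4) in the fed and 14.1 ± 1.35 CPM (SD, n = 4) in the refed libraries.

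Of the 14867 genes tested, 1506 (10.1%) passed an adjusted p of 0.05 in edgeR's quasi-likelihood test. Of these, 947 (6.37% of genes tested) were higher after 1 month of refeeding and 559 (3.76%) were lower. The called genes differed in size by direction: the median log2 change was 0.77 among those higher and -0.35 among those lower, and 349 rose but only 5 fell by at least 2-fold. Over all genes tested the median log2 change was 0.00. In 1346 genes (9.05%) every refed library was above every fed one, and 846 of these (5.69% of genes tested) were called higher. In 994 (6.69%) every refed library was below every fed one, and 425 of these (2.86%) were called lower. Without fed control 5 the counts were 1506 higher and 1350 lower. The authors' deposited table for the same pair, whose fold changes run the other way (fed over refed), lists 494 genes at an adjusted p below 0.05, 485 higher in refed mice and 9 lower, and 457 genes were called in the same direction in both. The lower calls were the less stable: leaving out 1 library gave 191 (refed 2), 206 (fed control 3), 220 (refed 4), 223 (fed control 2), 265 (refed 5), 298 (refed 1), 592 (fed control 4) or 1350 lower genes, and the higher calls ranged from 584 (refed 2) and 623 (fed control 3) to 1506.

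**Figure D1:**
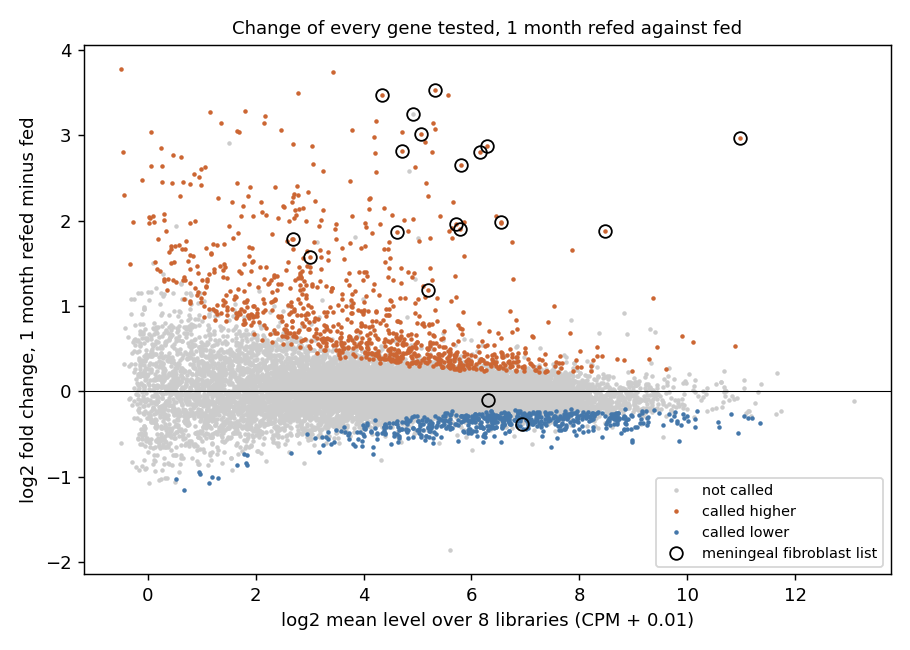
Log2 fold change (vertical axis, 1 month refed minus fed) of each of the 14867 genes tested against its log2 mean level (horizontal axis, CPM + 0.01); orange points were called higher, blue points lower, and rings mark the 19 genes of the meningeal fibroblast list. Most rings lie above 1, and the called lower genes stay close to 0.

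Genes of meningeal fibroblasts and their matrix were higher after refeeding, by the largest median of the 52 main gene lists. Of the 19 genes of that list, all of them tested, 16 rose, none fell, and the median log2 change was 1.98, beside 6.37% of all genes called higher and an overall median of 0.00. The summed level of the list in fed controls 2, 3, 4 and 5 was 898, 693, 705 and 1816 CPM. In refed libraries 1, 2, 4 and 5 it was 5109, 7413, 4557 and 4360 CPM. The groups did not overlap, and fed control 5 was the highest of the controls. Ptgds, which makes prostaglandin D2 and is one of the most abundant meningeal transcripts, carried much of that sum. Without it the list summed to 472 to 718 CPM in the fed and 1523 to 2392 CPM in the refed libraries. In bulk tissue, fewer or more cells of a type and less or more RNA per cell cannot be told apart, and the part of the meninges left on the tissue was not tested. The 8 fits that each left out 1 library called 9 (without fed control 2), 10 (without fed control 3 or refed 2) or up to 17 (without fed control 5) of the 19 higher.

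**Figure D2:**
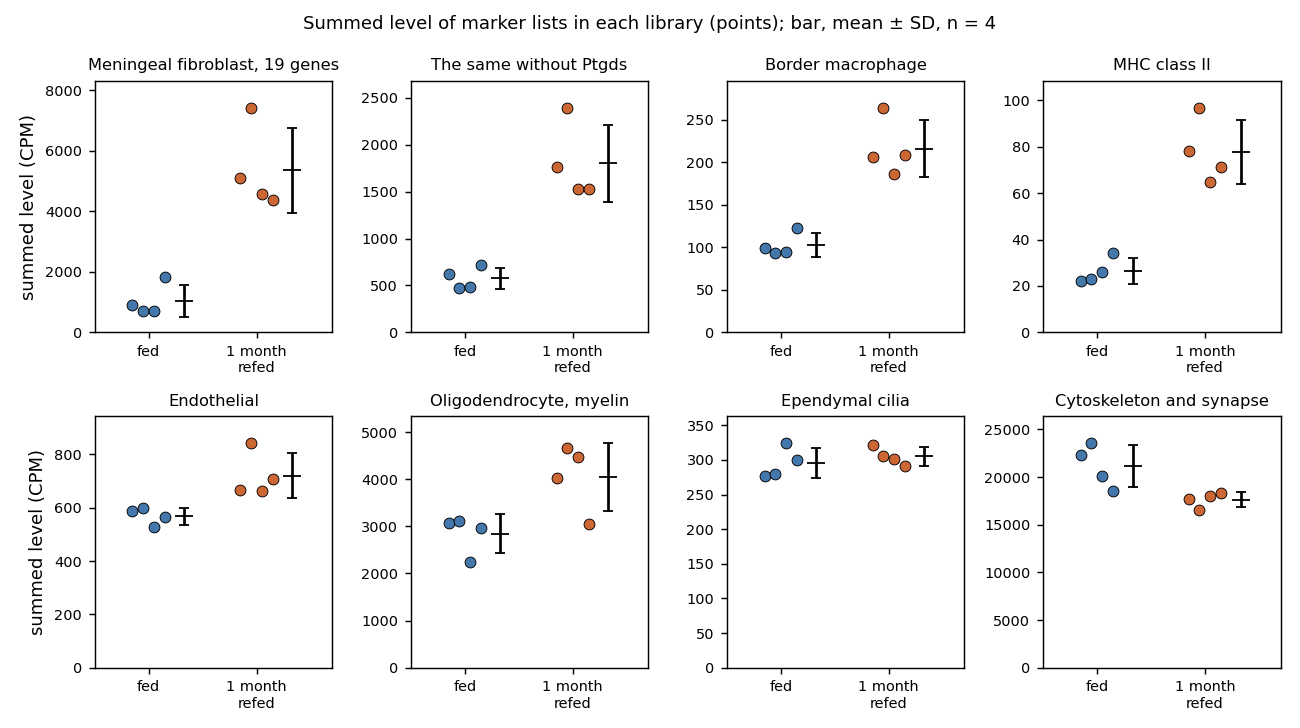
Summed level (CPM, vertical axes from 0) of 8 marker sets in each library, fed controls in blue and 1 month refed in orange; bars are the mean ± SD of 4 libraries. The meningeal, border macrophage and MHC class II sums separate the groups, the ependymal cilia sum overlaps, and the cytoskeleton and synapse sum is lower in the refed libraries.

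Collagens were among the matrix genes that rose. Col1a1, the major chain of type I collagen (chr11:94936224-94953042), stood at 22.2, 17.8, 19.2 and 26.5 CPM in fed controls 2, 3, 4 and 5 and 77.8, 118, 67.9 and 69.7 CPM in refed libraries 1, 2, 4 and 5. Every refed library was above every fed library, and the log2 change was 1.97 ± 0.20 (adjusted p = 0.00037, edgeR). Col6a1, a chain of the microfibrillar type VI collagen, rose by 1.19 ± 0.15 on the log2 scale (adjusted p = 0.00016, edgeR), and Bgn, the small proteoglycan biglycan, by 1.87 ± 0.26 (adjusted p = 0.0026). The type IV collagens of the vascular basement membrane were 2 of the 3 listed genes that did not pass: the log2 change was -0.10 ± 0.11 for Col4a1 (adjusted p = 0.59) and -0.39 ± 0.16 for Col4a2 (adjusted p = 0.16). The other was Ogn, the proteoglycan osteoglycin, whose fed values of 1.25, 1.01, 2.97 and 17.3 CPM all lay below its refed values of 54.6, 70.4, 47.1 and 46.4 CPM, with an adjusted p of 0.051. Over all genes tested 6.37% were called higher. Wider lists, which share genes with the meningeal list, were written after these values had been seen. In them, 17 of 28 tested genes of collagens and collagen assembly and 16 of 20 of basement membrane and small proteoglycans were called higher and none lower. Among the latter Nid1, the basement membrane linker nidogen 1, went from 21.2, 22.2, 16.3 and 21.1 CPM to 51.9, 70.6, 46.2 and 52.3 CPM without overlap (log2 change 1.45 ± 0.13, adjusted p = 1.2e-05).

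The 15 genes with the largest log2 increase among those called, without overlap and averaging at least 1 CPM were Igfbp6, Fmod, Osr1, Slc22a6, Slc13a4, Fgfbp1, Gxylt2, Omd, Cdh1, H2-Q1, Mrgprf, Prg4, Itih2, Wnt6 and Slc6a12, with changes of 3.06 to 3.73. Igfbp6, which binds insulin-like growth factor 2, was at 0.768, 0.774, 0.575 and 3.79 CPM in the fed and 18.4, 30.7, 18.0 and 13.4 CPM in the refed libraries. Fed control 5 again stood above the other controls but below every refed library. Fmod encodes the collagen-binding fibromodulin (log2 change 3.53 ± 0.59, adjusted p = 0.017), Prg4 the lubricating proteoglycan lubricin (3.14 ± 0.61, adjusted p = 0.027) and Cdh1 the epithelial cadherin that joins arachnoid barrier cells (3.17 ± 0.57, adjusted p = 0.020). With 1 library left out, Slc22a6, Slc13a4 and Prg4 passed only when that library was fed control 5, with log2 changes of 4.91, 4.82 and 4.23, and so did Ptgds (3.90). Cdh1 passed without fed control 5, refed 4 or refed 5, and Igfbp6 in all 8 such fits. H2-Q1 belongs to a family of similar class I genes, so its reads may be shared with relatives.

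Transcription factors known from meningeal cells were higher too. Tbx15, a T-box factor of mesenchymal cells (chr3:99240381-99354259), had fed values of 0.576, 0.619, 0.767 and 0.823 CPM and refed values of 6.12, 6.38, 4.61 and 5.91 CPM. Every refed library was above every fed one, the log2 change was 3.03 ± 0.25 and the adjusted p 4.3e-06 (edgeR). Eya1, a co-activator of homeobox factors, rose from 5.18, 5.11, 6.23 and 8.23 CPM to 19.4, 24.5, 17.0 and 21.6 CPM (log2 change 1.74 ± 0.16, adjusted p = 1.1e-05). Foxc1, a forkhead factor needed for the meninges to form, was at 8.35, 8.67, 4.60 and 7.90 CPM and 22.7, 30.6, 19.9 and 21.4 CPM in the same order, a log2 change of 1.68 ± 0.18 (adjusted p = 5e-05). In a list of such factors written after the values were seen, 13 of 18 tested were called higher and none lower, with a median log2 change of 1.77. The share of all genes called higher was 6.37%. Tbx15, Eya1 and Foxc1 kept their calls in all 8 fits without 1 library.

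**Figure D3:**
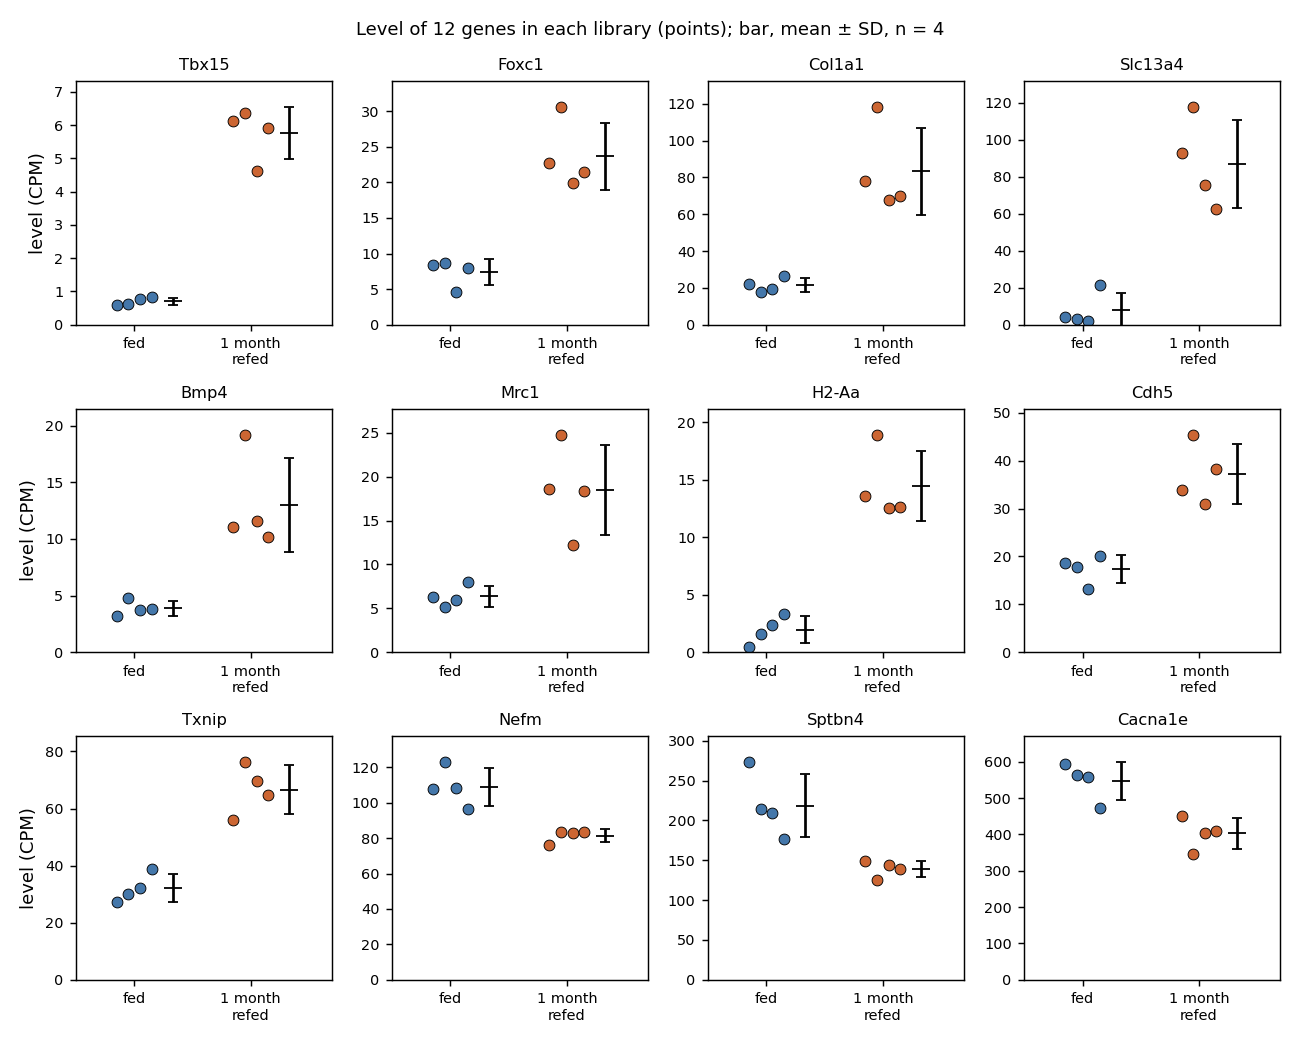
Level (CPM, vertical axes from 0) of 12 genes in each library, fed controls in blue and 1 month refed in orange, with the mean ± SD of 4 libraries beside the points. The groups do not overlap for any of the 12; Nefm, Sptbn4 and Cacna1e are lower in the refed libraries and the other 9 higher.

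Transporters of the arachnoid barrier and signals sent by the meninges were also higher. Slc13a4, a sulfate transporter, went from 4.22, 2.94, 2.11 and 21.6 CPM to 92.5, 118, 75.2 and 62.3 CPM, a log2 change of 3.47 ± 0.69 (adjusted p = 0.031, edgeR). Slc22a6, the organic anion transporter OAT1, changed by 3.47 ± 0.67 (adjusted p = 0.026). In the list of arachnoid transporters and junctions, written after the values were seen, 21 of 24 were called higher with a median of 1.79. The share of all genes called higher was 6.37%. Of the secreted signals, Bmp4 stood at 3.17, 4.80, 3.74 and 3.79 CPM in the fed and 11.1, 19.2, 11.6 and 10.1 CPM in the refed libraries (log2 change 1.75 ± 0.21, adjusted p = 8.8e-05), and Bmp5 and Bmp7, ligands of the same bone morphogenetic protein family, rose by 2.17 ± 0.25 and 1.67 ± 0.18. In all, 15 of 24 tested genes of such ligands and retinoid handling, again listed afterwards, were higher.

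In the list of insulin and FoxO signalling 7 of 29 tested genes rose and none fell, beside 6.37% of all genes called higher, and the median was 0.03. Of the 7, 6 encode insulin-like growth factors (IGFs) or their binding proteins: Igf1, Igf2, Igfbp2, Igfbp3, Igfbp4 and Igfbp5, and the other is the kinase gene Akt2. Igf2, a growth factor with strong meningeal expression, was at 17.5, 14.6, 7.77 and 35.0 CPM in the fed and 139.6, 187, 116 and 109 CPM in the refed libraries, without overlap. Its log2 change was 2.87 ± 0.44 (adjusted p = 0.013, edgeR), and 62.8% of its exonic sequence overlaps exons of other annotated protein-coding genes. Igfbp2 changed by 2.92 ± 0.46 (adjusted p = 0.013) and Igfbp4 by 1.31 ± 0.16 (adjusted p = 7.9e-05). Leaving out 1 library gave 4 (fed control 3 or refed 2) to 7 higher genes in this list, and 1 lower gene without fed control 5.

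Immune genes were also higher, most of all those of MHC class II. MHC class II molecules display peptides on antigen-presenting cells, and they share promoter elements, the X and Y boxes, at which RFX, NF-Y and the co-activator CIITA assemble. Class II genes lay between 0.480 and 9.88 CPM in the fed libraries for H2-Aa, H2-Ab1, H2-Eb1 and Cd74, so their counts are low. H2-Aa, the alpha chain of I-A, was at 0.480, 1.63, 2.40 and 3.29 CPM in fed controls 2, 3, 4 and 5 and 13.6, 18.9, 12.5 and 12.7 CPM in refed libraries 1, 2, 4 and 5. Its log2 change was 2.87 ± 0.32 (adjusted p = 0.00018, edgeR). H2-Eb1, the beta chain of I-E, changed by 2.03 ± 0.24 (adjusted p = 6.6e-05), and H2-DMb1, a chain of the peptide-loading molecule, by 1.05 ± 0.28 (adjusted p = 0.024). The groups of these 3 genes did not overlap. Ciita itself, at 9.03, 5.49, 7.29 and 6.17 CPM against 6.98, 5.66, 4.89 and 3.91 CPM, did not pass (log2 change -0.36 ± 0.20, adjusted p = 0.27), nor did H2-DMa (0.23 ± 0.19, adjusted p = 0.47). Over the class II list of 7 genes, gathered after the values were seen, 5 were higher with a median of 2.03, beside 6.37% of all genes called higher. The summed level was 22.1 to 34.2 CPM in the fed and 64.8 to 96.7 CPM in the refed libraries.

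The promoters of H2-Aa, H2-Eb1 and H2-DMb1, called class II genes with an entry in the RefSeq promoter table, are shown because class II genes moved together. H2-Ab1 had no entry, and the promoter of Cd74 was not looked up. The capitals mark the motifs. Each is the 150 bases before the transcription start in RefSeq on GRCm38.p6, 5′ to 3′ on the gene's strand, with the letters TGATTGG (the core of the Y box, an inverted CCAAT) and TGATGATG (part of the X box) in capitals.
H2-Aa, chr17:34287824-34287973, minus strand: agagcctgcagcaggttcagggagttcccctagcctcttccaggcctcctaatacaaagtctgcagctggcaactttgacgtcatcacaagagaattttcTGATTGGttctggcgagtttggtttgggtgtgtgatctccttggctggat
H2-Eb1, chr17:34305717-34305866, plus strand: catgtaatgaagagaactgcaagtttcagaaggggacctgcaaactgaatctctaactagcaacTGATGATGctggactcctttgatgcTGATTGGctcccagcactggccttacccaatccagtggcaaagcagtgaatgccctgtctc
H2-DMb1, chr17:34153041-34153190, plus strand: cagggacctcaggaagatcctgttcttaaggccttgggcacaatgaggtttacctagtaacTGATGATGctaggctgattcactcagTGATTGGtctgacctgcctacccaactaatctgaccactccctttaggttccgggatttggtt
TGATTGG begins 50, 61 and 63 bases before the start in H2-Aa, H2-Eb1 and H2-DMb1. TGATGATG begins 86 bases before the start in H2-Eb1 and 89 before it in H2-DMb1, and those letters are not in the H2-Aa window. Searched on both strands over the 250 bases before the start of 27025 genes, TGATTGG was found for 8.38%, TGATGATG for 1.45% and both in 1 window for 0.0814%. The 2 strings do not overlap each other in these windows, and neither string was found before the starts of H2-DMa, which was not called. A match is a description of the letters. Only these exact letters were searched, so a window without them may still hold an X box.

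Markers of border macrophages and of microglia were counted separately, beside 6.37% of all genes called higher. Mrc1, the mannose receptor of border-associated macrophages, was at 6.34, 5.19, 5.94 and 7.98 CPM in the fed and 18.6, 24.8, 12.2 and 18.4 CPM in the refed libraries, a log2 change of 1.55 ± 0.20 (adjusted p = 0.00016, edgeR). Siglec1, the sialic acid receptor of the same cells, rose by 2.40 ± 0.28 (adjusted p = 6.1e-05) and Dab2, an endocytic adaptor, by 0.95 ± 0.09 (adjusted p = 1.2e-05). In a list of border-associated macrophage genes written afterwards, 9 of 10 tested were higher (median 1.38). In one of homeostatic microglia genes, also written afterwards, 1 of 12 was, Olfml3, with a median of 0.19. In 3 of these 12 every refed library was above every fed one, beside 9.05% of all genes. The summed microglia level was 313 to 364 CPM in the fed and 377 to 417 CPM in the refed libraries, without overlap. The border macrophage sum was 93.6 to 123 CPM in the fed and 186 to 264 CPM in the refed libraries. Tmem119 and P2ry12, which mark microglia, had log2 changes of 0.42 ± 0.14 (adjusted p = 0.060) and 0.24 ± 0.14 (adjusted p = 0.28). The difference between the 2 lists was not tested. In the wider list of microglia and myeloid markers 4 of 18 rose (Mrc1, C1qa, C1qb and C1qc; median 0.28), with 2 without fed control 3 or refed 2 and 6 without fed control 5. The complement genes C1qb and C1qc, made by microglia and macrophages alike, rose by 0.43 ± 0.10 and 0.45 ± 0.10 (adjusted p = 0.013 and 0.0066).

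Of the 27 genes of interferon response and antigen presentation, 12 rose and none fell, beside 6.37% of all genes called higher. The median was 0.81. The 12 include the class II genes H2-Ab1, H2-Aa and Cd74 described above. B2m, the light chain of class I MHC, was at 55.5, 69.6, 79.2 and 70.6 CPM in the fed and 118, 109, 105 and 111 CPM in the refed libraries, without overlap (log2 change 0.69 ± 0.09, adjusted p = 0.00015, edgeR). Gbp2, an interferon-induced GTPase that is also counted among reactive astrocyte genes, changed by 1.53 ± 0.23 (adjusted p = 0.00093). Among 12 tested reactive astrocyte genes 7 rose, including the complement gene C4b (0.81 ± 0.13, adjusted p = 0.0017), the oncostatin M receptor gene Osmr (0.90 ± 0.17) and the filament gene Vim (1.32 ± 0.19), which fibroblasts and endothelium express as well. Among general astrocyte markers 2 of 16 were called higher (Gjb6 and S100b), with a median of 0.10. Gjb6 is also in the arachnoid and glucocorticoid lists. Leaving out 1 library gave 7 (fed control 3) to 16 (refed 5) called interferon genes and 6 to 9 (refed 5) reactive astrocyte genes. General astrocyte markers had 5 higher and 1 lower without fed control 5, 2 higher and 1 lower without fed control 4 and 4 higher without refed 5.

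Vascular and myelin genes were partly higher, beside 6.37% of all genes called higher and 3.76% called lower. Of 14 endothelial markers 7 rose and none fell (median 0.29), and 4 did without fed control 2 or fed control 3. Cdh5 and Abcb1a, among the 7, are also in the arachnoid list. Cdh5, the cadherin of endothelial junctions, was at 18.5, 17.8, 13.2 and 20.2 CPM in the fed and 34.0, 45.4, 31.1 and 38.2 CPM in the refed libraries (log2 change 1.09 ± 0.14, adjusted p = 0.00012, edgeR). Kdr, the main VEGF receptor, changed by 0.71 ± 0.11 (adjusted p = 0.00050) and Abcb1a, the drug efflux pump of the blood-brain barrier, by 0.59 ± 0.11 (adjusted p = 0.0042). Pericyte and smooth muscle markers included 4 higher genes of 13, among them Pdgfrb (0.48 ± 0.10) and Myl9 (0.95 ± 0.18), and 1 lower, Notch3 (-0.41 ± 0.12), with 2 higher without fed control 2 and 6 without refed 1. Of 18 oligodendrocyte genes 6 rose (median 0.44), among them Cldn11, which is also in the arachnoid list. Mbp, the myelin basic protein gene, was at 775, 839, 568 and 801 CPM in the fed and 1149, 1281, 1328 and 912 CPM in the refed libraries (log2 change 0.65 ± 0.13, adjusted p = 0.011), refed library 5 being the closest to the controls. Without refed 5, 12 of the oligodendrocyte genes were called; without fed control 2 or refed 2, 3 were. None of 10 oligodendrocyte precursor genes and none of 13 ependymal cilia genes was called by edgeR, with 4 and 3 at an unadjusted p below 0.05 and 2 and 0 called by DESeq2. Over all 14867 genes tested, 4028 were at an unadjusted p below 0.05 in edgeR's test. Of 10 choroid plexus genes 2 rose, Kl and Kcnj13, and 4 did without refed 5. The list's median of 0.20 ranged from 0.01 (without fed control 2) to 0.33 (without fed control 5), and 49.1% of the exonic sequence of Kcnj13 overlaps exons of other protein-coding genes.

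Genes of neuronal structure were among the lower genes, with small changes. Of 30 cytoskeleton and synapse genes 12 fell, none rose and the median was -0.26, beside 3.76% of all genes called lower. Nefm, a neurofilament subunit of axons, was at 108, 123, 108 and 96.7 CPM in the fed and 75.9, 83.6, 83.1 and 83.2 CPM in the refed libraries, without overlap (log2 change -0.42 ± 0.08, adjusted p = 0.0028, edgeR). Shank2, a scaffold of excitatory synapses, changed by -0.39 ± 0.10 (adjusted p = 0.019). The count of 12 varied from 1 (without refed 2), 2 (fed control 3), 3 (fed control 2), 4 (refed 4) and 7 (refed 1 or 5) to 20 (fed control 5). In the same libraries the summed level of the list ran opposite to the meningeal sum: 18535 to 23539 CPM in the fed and 16509 to 18298 CPM in the refed libraries. CPM values share a total, and the part of one sum in the other was not tested.

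Ion channel and receptor genes followed the same direction, beside 3.76% of all genes called lower. Cacna1e, the R-type calcium channel, was at 592, 563, 557 and 472 CPM in the fed and 452, 346, 403 and 410.3 CPM in the refed libraries (log2 change -0.44 ± 0.09, adjusted p = 0.0039, edgeR). Kcna3, a delayed rectifier potassium channel gene, changed by -0.46 ± 0.10 (adjusted p = 0.0058). Of 35 voltage-gated channel genes listed after the values were seen, 18 were lower and none higher (median -0.28), with 4 (without refed 2), 5 (fed control 3), 8 (fed control 2), 9 (refed 4 or 5) or 10 (refed 1) in other fits. Of 22 GABA and glutamate genes 4 fell, all of them ionotropic glutamate receptor subunits: Gria3 (-0.37 ± 0.08, adjusted p = 0.0067), Grin2b (-0.41 ± 0.09, adjusted p = 0.012), Grin2a (-0.28 ± 0.08) and Gria1 (-0.25 ± 0.07). Gria3 and Grin2b kept their calls in all 8 fits without 1 library. The list had 8 lower genes without fed control 5 and 2 without fed control 2, fed control 3 or any 1 refed library.

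The 15 called lower genes with the largest decrease had log2 changes of -1.08 (E030018B13Rik) to -0.64 (Zfp831). Sptbn4, the spectrin that anchors channels at the axon initial segment (chr7:27356383-27447686), was the most abundant of them, at 273, 215, 209 and 177 CPM in the fed and 149, 125, 144 and 139 CPM in the refed libraries. Its log2 change was -0.65 ± 0.11 (adjusted p = 0.0016, edgeR) and was called in all 8 fits without 1 library. Lhx9, a homeobox gene and the only lower member among 29 hypothalamic transcription factors tested, was at 3.65, 3.79, 1.73 and 2.88 CPM and 1.58, 1.29, 1.60 and 1.58 CPM (a level 2.00-fold lower, adjusted p = 0.028). It kept its call only without fed control 4 or without fed control 5. Over all genes tested 3.76% were called lower. Ezhip, an inhibitor of the Polycomb complex, fell by 1.02 and Bub1b, a mitotic checkpoint kinase gene, by 0.73, both at low levels (means of 3.30 and 7.83 CPM in the fed libraries).

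Of the 4 arcuate feeding peptides, Npy was called and Agrp, Pomc and Cartpt were not. Agrp, the hunger peptide that blocks melanocortin receptors, was at 7.30, 5.19, 8.73 and 7.16 CPM in fed controls 2, 3, 4 and 5 and 6.33, 10.6, 7.43 and 7.29 CPM in refed libraries 1, 2, 4 and 5, with a log2 change of 0.17 ± 0.19 (adjusted p = 0.60, edgeR). The log2 change was -0.12 ± 0.28 for Pomc, the precursor of the satiety signal alpha-MSH (adjusted p = 0.83), and -0.02 ± 0.12 for Cartpt, the satiety peptide co-expressed with it (adjusted p = 0.94). The groups of all 3 genes overlapped. Npy, the potent hunger peptide made with Agrp, was at 16.7, 18.1, 31.3 and 23.5 CPM in the fed and 31.5, 30.0, 33.8 and 36.6 CPM in the refed libraries. It rose by 0.56 ± 0.16 (adjusted p = 0.040), with fed control 4 above the lowest refed value, and with 1 library left out it was called only without fed control 4 (log2 change 0.75, adjusted p = 0.0015).

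**Figure D4:**
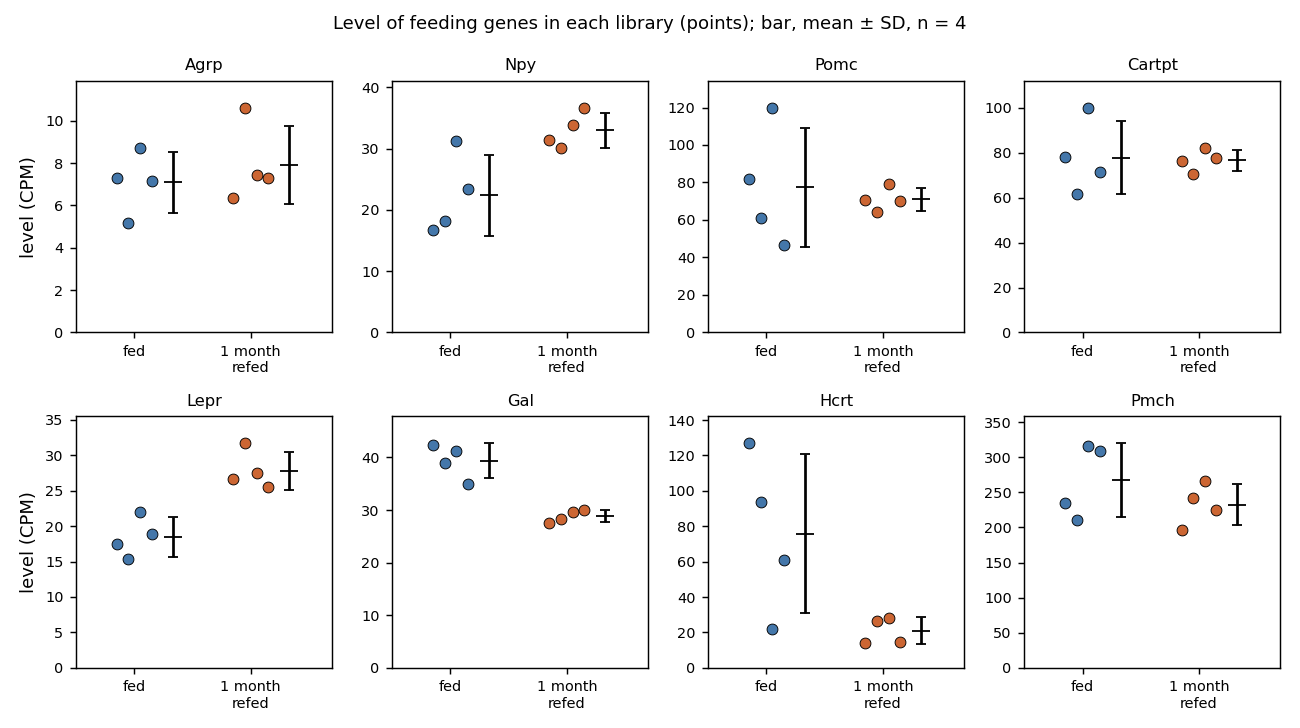
Level (CPM, vertical axes from 0) of 8 feeding genes in each library, fed controls in blue and 1 month refed in orange, with the mean ± SD of 4 libraries. Lepr and Gal separate the groups; Agrp, Pomc, Cartpt and Pmch overlap, as do Npy and Hcrt through fed control 4.

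The leptin receptor rose and galanin fell. Lepr, through which the fat hormone leptin acts on these neurons, was at 17.5, 15.3, 22.1 and 18.9 CPM in the fed and 26.6, 31.7, 27.5 and 25.6 CPM in the refed libraries. Every refed library was above every fed one (log2 change 0.60 ± 0.12, adjusted p = 0.0037, edgeR), and the call held in all 8 fits without 1 library. It was the only call among 31 hormone receptor genes tested (median -0.08), where 3 were higher without fed control 5 and 2 without fed control 4. Over all genes tested 6.37% were called higher and 3.76% lower. Lepr is also known from vessels and meninges, whose markers were higher in the same libraries, and their part was not tested. Gal, the orexigenic neuropeptide galanin, was at 42.4, 38.9, 41.2 and 35.0 CPM in the fed and 27.6, 28.3, 29.6 and 30.0 CPM in the refed libraries, falling without overlap (log2 change -0.45 ± 0.09, adjusted p = 0.0042), also in all 8 such fits, and was the only call among 24 other feeding peptides. Hcrt, the orexin precursor of the lateral hypothalamus that promotes wakefulness and feeding, had the values 127, 93.5, 21.8 and 60.9 CPM in the fed and 14.2, 26.4, 28.3 and 14.5 CPM in the refed libraries. Its mean was 75.8 ± 44.9 CPM (SD, n = 4) in the fed and 20.9 ± 7.58 CPM (SD, n = 4) in the refed libraries, a log2 change of -1.86 ± 0.58 that did not pass (adjusted p = 0.099), and fed control 4 lay within the refed range. Without fed control 4 it passed, at log2 change -2.17, adjusted p = 0.029. Pmch, the melanin-concentrating hormone gene of the same region, had a log2 change of -0.20 ± 0.13 (adjusted p = 0.36). The prohormone convertase gene Pcsk1, which cuts many of these precursors, was lower, by -0.31 ± 0.09 (adjusted p = 0.035), and passed only without fed control 4 or 5 when 1 library was left out.

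Among hormone-response and stress genes, some glucocorticoid-responsive genes were higher, 7 of 28 tested with a median of 0.10, beside 6.37% of all genes called higher. Txnip, a glucose- and steroid-induced regulator of glucose uptake, was at 27.3, 30.0, 32.2 and 38.7 CPM in the fed and 56.1, 76.2, 69.5 and 64.8 CPM in the refed libraries, without overlap (log2 change 1.06 ± 0.11, adjusted p = 2.9e-05, edgeR). Sult1a1, a sulfotransferase, changed by 1.07 ± 0.16 (adjusted p = 0.00050) and Errfi1, an inhibitor of EGF receptor signalling, by 0.56 ± 0.10 (adjusted p = 0.0022). Fkbp5, the glucocorticoid receptor co-chaperone, rose by 0.51 ± 0.15 (adjusted p = 0.042) with overlapping groups and kept its call only without fed control 4 or refed 1. Leaving out 1 library gave 4 (fed control 2 or 3, refed 2, 4 or 5) to 10 (refed 1) called genes in this list. Of 20 heat shock genes 4 rose, Hspb1, Bag3, Hspb8 and Cryab, which encode small heat shock proteins or their partner, and Hspa4l fell (-0.28 ± 0.06). Of 19 tested genes of the ATF4 amino acid response 3 rose, with a list median of -0.005, and leaving out 1 library gave 2 to 5. Nupr1, a stress-induced nuclear protein gene of the ATF4 pathway, was at 1.15, 2.24, 2.01 and 3.29 CPM in the fed and 12.5, 14.4, 8.09 and 8.55 CPM in the refed libraries (log2 change 2.31 ± 0.26, adjusted p = 6.3e-05), and Slc7a11, the cystine transporter that meningeal cells also carry, changed by 0.78 ± 0.14 (adjusted p = 0.0035). Of 20 endoplasmic reticulum chaperone genes 6 rose (median 0.05), with the smallest adjusted p for Pdia4, a disulfide isomerase (0.28 ± 0.08, adjusted p = 0.030); without fed control 2, fed control 3 or refed 5 none was called, without fed control 4, refed 1, 2 or 4 it was 1, and without fed control 5 it was 8.

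Metabolic genes gave few calls. In a list of fatty acid oxidation and ketone genes 3 of 28 rose (median 0.16), beside 6.37% of all genes. Elovl5, a fatty acid elongase gene, rose by 0.38 ± 0.08 (adjusted p = 0.0085) as the only call among 14 genes of fatty acid synthesis.

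Several core programmes of the tissue gave no called gene in edgeR's test: 19 core clock genes (median 0.03), 54 nuclear oxidative phosphorylation genes (median 0.09), 23 cholesterol synthesis genes (median 0.03) and 11 thyroid hormone genes (median -0.03). The smallest adjusted p was that of Sdhc in the respiratory chain list (0.25 ± 0.09, adjusted p = 0.082) and that of Ciart in the clock list (0.29 ± 0.11, adjusted p = 0.11). At an unadjusted p below 0.05 these lists held 2, 13, 4 and 0 genes, beside 4028 of all 14867 genes tested, and DESeq2 called 0, 0, 0 and 0. Without fed control 5, 14 oxidative phosphorylation genes were called higher, 1 cholesterol gene higher and 3 lower, and 1 thyroid hormone gene lower, and without fed control 3, 1 clock gene was called higher. Of 55 cytosolic ribosomal protein genes 2 rose, 16 did without fed control 5 and 5 without fed control 4, and none did without fed control 2 or 3 or refed 2 or 4. The share of all genes called higher was 6.37%.

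The 1-month change was set beside the change during the 72 h fast itself, measured in 3 fasted and 3 fed libraries of the same strain and genotype in another count table, so the comparisons share no library. Of 13914 genes tested in both, 4123 (29.6%) had a 1-month change that differed from the 72 h change in edgeR's joint fit, 1899 (13.6%) upward and 2224 (16%) downward. In that fit 72 h of fasting gave 2323 higher (16.7%) and 2149 lower (15.4%) genes, and 1 month of refeeding 710 higher (5.1%) and 696 lower (5%). Genes called in both numbered 410, which is 29.2% of the 1-month calls and 9.17% of the 72 h calls. Of these, 31 were higher in both, 91 lower in both, 158 higher at 1 month and lower at 72 h, and 130 the reverse. Across genes, which are not independent replicates, the 2 changes had a Pearson r of -0.25. The difference count ranged from 2939 (without fed library 1 of the fasting table) and 2944 (without fasted library 3) to 5707 (without fed library 3).

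Several list medians had opposite signs in the 2 comparisons, while those of cytosolic chaperones and striatal markers were negative in both. The striatal median was -0.24 at 1 month and -1.59 at 72 h in the joint fit. The meningeal list had a median of 1.93 at 1 month and -0.55 at 72 h in the joint fit, and 15 of its 17 genes tested in both differed upward. At 72 h 3 of the 17 were called lower and 1 higher, beside 15.4% and 16.7% of all genes tested in both. In the wider list of 28 collagen genes, 6 were called higher and 2 lower at 72 h, with a median of 0.04. Col1a1 changed by -1.64 ± 0.32 at 72 h (adjusted p = 0.0031), a difference of 3.57 ± 0.42 (adjusted p = 0.00035, edgeR). H2-Ab1 stood at -0.28 ± 0.41 at 72 h (adjusted p = 0.62) and differed by 2.64 ± 0.55 (adjusted p = 0.0030). Of 14 endothelial genes 8 were lower at 72 h, and Cdh5 and Kdr differed by 1.64 ± 0.22 and 1.38 ± 0.23 (adjusted p = 0.00025 and 0.00071). Of 32 immediate early genes, many of them transcription factors that follow neuronal firing, 22 were lower at 72 h, 1 was higher, and 21 differed upward. At 1 month 3 of the 32 were called higher, beside 6.37% of all genes, and none without fed control 3 or refed 2. The joint-fit medians of this list were 0.15 at 1 month and -0.69 at 72 h. Chaperones of the endoplasmic reticulum (16 of 20 lower at 72 h) and cytosolic chaperones (18 of 20 lower) had 13 and 14 genes differing upward. The joint-fit medians of these lists were 0.02 and -0.07 at 1 month and -0.42 and -0.53 at 72 h. At 72 h 12 of 13 striatal neuron markers and 5 of 6 blood genes were lower as well, while at 1 month none of either list was called lower. The striatal list then had a median of -0.20 and summed levels of 400.0 to 439 CPM in the fed and 379 to 409 CPM in the refed libraries. Its 2 called genes, Foxp1 and Adora2a, were higher, Adora2a with overlapping groups, and kept their calls in 4 and 2 of 8 fits without 1 library. None of the list was called without fed control 2, fed control 4, refed 1 or refed 5, and 2 were higher and 2 lower without fed control 5. Their part in the differences was not tested.

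Of Lepr, Agrp, Npy and Hcrt, the 2 changes differed for Hcrt. Lepr changed by 0.52 ± 0.16 at 72 h (adjusted p = 0.019), and the difference of 0.04 ± 0.21 did not pass (adjusted p = 0.90, edgeR). Agrp and Npy stood at 0.19 ± 0.20 and -0.13 ± 0.20 at 72 h (adjusted p = 0.49 and 0.63), and neither difference passed (adjusted p = 0.89 and 0.073). Fkbp5 was 0.56 ± 0.14 at 72 h (adjusted p = 0.0086) with a difference of -0.09 ± 0.20 (adjusted p = 0.76). Hcrt, at 0.29 ± 0.50 at 72 h, differed by -2.19 ± 0.69 (adjusted p = 0.036), and Sptbn4, called higher at 72 h (0.43 ± 0.12, adjusted p = 0.010), by -1.12 ± 0.15 (adjusted p = 0.00026). Pcsk1, Hspa4l and Sox11, a factor of immature neurons, were called lower in both comparisons, by -0.52 ± 0.11, -0.30 ± 0.08 and -0.68 ± 0.11 at 72 h.

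**Figure D5:**
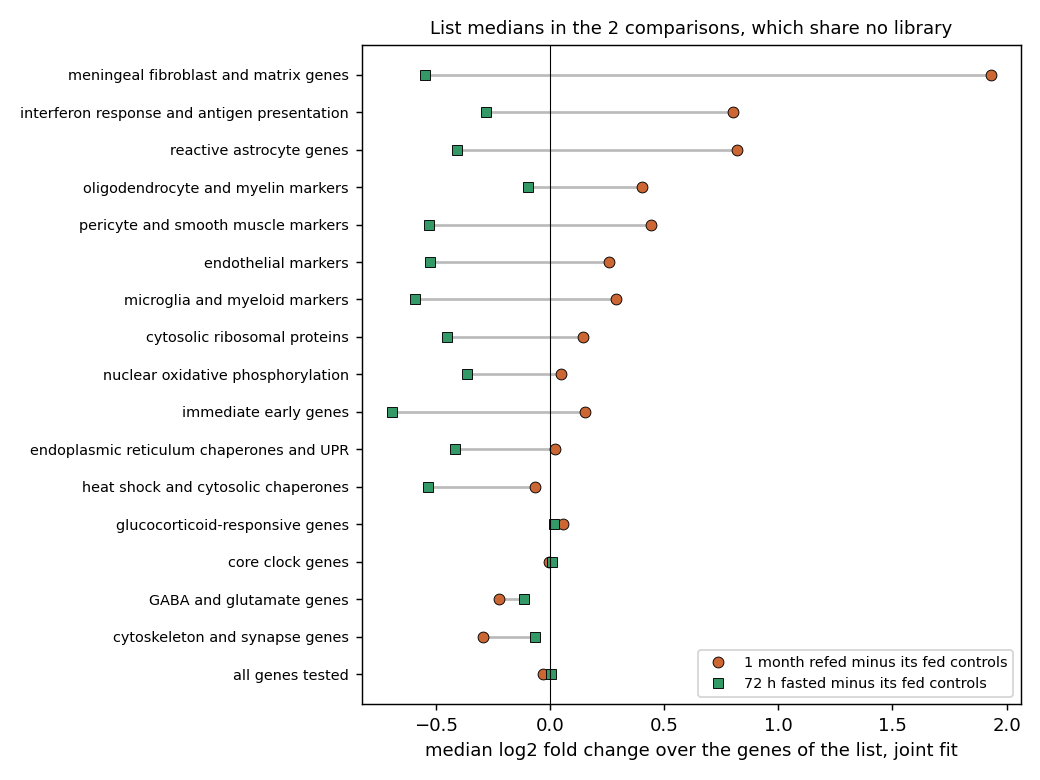
Median log2 fold change (horizontal axis) over the genes of 16 lists and over all genes tested, for 1 month refed minus its fed controls (circles) and 72 h fasted minus its fed controls (squares), both from the joint fit of 14 libraries. The meningeal median is 1.93 at 1 month and -0.55 at 72 h, while the core clock and glucocorticoid medians lie near 0 in both.

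All 4 refed libraries had a higher meningeal sum than any control. A surrogate variable estimated from the data stood at 0.725, 0.426, 0.0277 and -0.166 in fed controls 2, 3, 4 and 5. In refed libraries 1, 2, 4 and 5 it was -0.203, -0.309, -0.218 and -0.284. The groups did not overlap in it, so it cannot be fully told apart from the refeeding history. With this 1 surrogate variable in the fit, 134 genes were called higher and 1 lower (1471 at an unadjusted p below 0.05). In that fit the meningeal list went from 16 to 1 called gene, the arachnoid list from 21 to 2, reactive astrocyte genes from 7 to 0, oligodendrocyte genes from 6 to 0, cytoskeleton and synapse genes from 12 to 0 and voltage-gated channels from 18 to 0. The median log2 change went from 1.98 to 1.75 in the meningeal list and from 1.79 to 1.36 in the arachnoid list. It went from 0.77 to 0.86 in reactive astrocyte genes and from 0.44 to 0.61 in oligodendrocyte genes. In cytoskeleton and synapse genes it went from -0.26 to -0.08 and in voltage-gated channels from -0.28 to -0.10. Of the genes named here, those kept included Tbx15, Foxc1, Eya1, Bmp4, Nid1, H2-Aa, H2-Ab1, H2-Eb1, Siglec1, Cdh5, Kdr, Txnip and Nupr1; Lepr, Gal, Npy and Nefm were not kept. With the log2 summed meningeal level as a covariate, an alternative added after the data were seen, edgeR called 0 genes (311 at an unadjusted p below 0.05). That level had a correlation of 0.94 with group membership over the 8 libraries, so the refeeding history and the meningeal level cannot be told apart. Summed blood cell genes were 1152 to 1890 CPM in the fed and 1412 to 4364 CPM in the refed libraries and overlapped.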

How the data were processed

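Gene counts of 8 hypothalamus libraries, 4 from mice refed for 1 month after a 72 h fast and 4 from their fed controls, and of 3 fasted and 3 fed libraries of a separate table were used as deposited. Per the labels' protocols, RNA was extracted with a column kit and made into directional, ribosomal RNA-depleted libraries. Per the submitters' processing notes, HISAT2, featureCounts, edgeR and the mm10 genome were used; versions and the strand setting of the counting are not given in the sources used here, so genes that overlap on opposite strands may share reads. The authors' deposited table of the same pair gives a log2 fold change and a p-value with its adjusted value per gene, from an edgeR likelihood ratio test per the file headers. In the count table, 2 columns that match no sample were not used.

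Counts were tested with edgeR 4.0.16 in R 4.3.3 (TMM factors, filterByExpr, robust quasi-likelihood test, Benjamini-Hochberg adjustment over all genes tested, threshold 0.05, no covariate). Every adjusted p of a fit here comes from that test unless another tool is named. The 1-month and 72 h changes were compared in 1 joint fit of 14 libraries. Each fit was checked on simulated counts. Alternatives were RLE and upper-quartile factors, the likelihood ratio test, limma 3.58.1 (voom), DESeq2 1.42.0, other filters on low counts, each library left out, a replicate block and 1 surrogate variable from sva 3.50.0. A meningeal covariate and 9 gene lists were added after the data were seen. The lists share genes, so the same called gene can count in several of them. Mitochondrially encoded genes are listed at 0 counts and were not analysed. Gene coordinates and exon overlaps are those of the GRCm38 annotation.

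The comparison and the gene lists were chosen with earlier results of these data known. Genes were named by rule: the 15 with the largest change in each direction among those called, without overlap and averaging at least 1 CPM; Agrp, Npy, Pomc and Cartpt; up to 4 called genes of each list; and up to 3 with the smallest p in lists with no call and in the feeding lists. Akt2, Ciita, Col4a1, Col4a2, Fkbp5, Foxc1, H2-DMa, H2-DMb1, Hspa4l, Igf1, Igfbp3, Notch3, Ogn, P2ry12, Pmch, Ptgds and Tmem119 fall outside it and were named after their values were seen, as were Nkx2-1 and Nr5a1.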

Additional observations from a re-analysis of the deposited data

Results flagged for a closer look

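Of 218 groups of 4 libraries, 2 for each named gene, 27 held a library set apart from the other 3 by more than Dixon's 95% critical value, and chance gives about 1 in 20 groups. Fed control 5 was the library concerned in 13 of them, high each time and mostly in genes of the meninges. This library had Cdh1 at 9.14 CPM (the other 3 at 1.55 to 2.30), Fgfbp1 at 1.81 CPM (the other 3 at 0.0959 to 0.387) and Fmod at 15.8 CPM (the other 3 at 2.88 to 3.48). It further had Igfbp2 at 16.8 CPM (the other 3 at 4.64 to 6.43), Igfbp6 at 3.79 CPM (the other 3 at 0.575 to 0.774) and Itih2 at 18.6 CPM (the other 3 at 4.41 to 6.14). Other such genes were Mrgprf at 1.73 CPM (the other 3 at 0 to 0.192), Ogn at 17.3 CPM (the other 3 at 1.01 to 2.97) and Osr1 at 2.72 CPM (the other 3 at 0.384 to 0.768). High values in the same control were Prg4 at 20.2 CPM (the other 3 at 2.69 to 4.26), Ptgds at 1098 CPM (the other 3 at 216 to 278) and Slc13a4 at 21.6 CPM (the other 3 at 2.11 to 4.22). In addition it had Slc22a6 at 9.47 CPM (the other 3 at 1.05 to 1.34). Refed 2 was the library concerned in 9, high in 7. It had Bmp4 at 19.2 CPM (the other 3 at 10.1 to 11.6), Col6a1 at 67.5 CPM (the other 3 at 43.7 to 47.4) and Grin2a at 62.0 CPM (the other 3 at 67.2 to 67.4). The same library gave H2-Aa at 18.9 CPM (the other 3 at 12.5 to 13.6), Igfbp3 at 13.8 CPM (the other 3 at 9.50 to 9.82) and Itih2 at 106 CPM (the other 3 at 58.5 to 63.9). Among the refed libraries it also had Lhx9 at 1.29 CPM (the other 3 at 1.58 to 1.60), Prg4 at 95.0 CPM (the other 3 at 59.5 to 64.4) and Slc6a12 at 40.3 CPM (the other 3 at 18.4 to 20.8). The other libraries concerned were fed control 2 for Col4a1 at 104 CPM (the other 3 at 71.7 to 75.9), fed control 3 for Foxp1 at 49.5 CPM (the other 3 at 42.8 to 43.5), refed 1 for Nefm at 75.9 CPM (the other 3 at 83.1 to 83.6), refed 1 for Sox11 at 15.3 CPM (the other 3 at 17.2 to 17.5) and fed control 3 for Tmem119 at 9.36 CPM (the other 3 at 7.67 to 7.82).

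For 6 genes the change after 1 month of refeeding differed from the change during the 72 h fast in the joint fit of edgeR. They are among 13 genes picked from those named above, beside 29.6% of all 13914 genes tested in both. The differences on the log2 scale were 3.57 for Col1a1, 2.64 for H2-Ab1, 1.64 for Cdh5 and 1.38 for Kdr, which were higher at 1 month relative to the fast, and -2.19 for Hcrt and -1.12 for Sptbn4, which were lower.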

How the results depend on the processing

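The counts of calls moved with the libraries used more than with the normalization. With RLE or upper-quartile factors, voom, the likelihood ratio test, DESeq2 or another filter on low counts the total stayed within 1.5 times the 1506 reported, but DESeq2 called 903 genes lower against 559. Leaving out 1 library gave 775 to 2856 genes in all, 584 to 1506 higher and 191 to 1350 lower. Of the 109 named genes with statistics, 95 were called and 64 of them in all 8 such fits. Libraries that share a replicate number (2, 4 and 5) had correlations of -0.04, -0.02 and -0.06 between their deviations from the group means. Pairs with different numbers had -0.12 to 0.19. So few pairs cannot decide whether the numbers pair the libraries. A replicate block over those 6 libraries gave 402 calls (348 higher, 54 lower), and the same 6 libraries without it 562 (446 higher, 116 lower). With 1 surrogate variable 135 genes were called (134 higher, 1 lower), and with the meningeal covariate 0 (0 higher, 0 lower), where 27 of the named genes called in the report had the opposite sign. The cause of these losses was not tested. The genes whose change differed from that at 72 h numbered 4175 with RLE factors, 4563 with DESeq2, 4085 with a stricter filter and 2939 to 5707 with 1 library left out, against 4123. Genes with a few counts per library, such as Mrgprf, Fgfbp1 and H2-Aa in the fed controls, are limited by depth.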
